A study of Mytilus galloprovincialis with 16 samples.

Results

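Among the 1920 cDNA clones of a mussel microarray, 130 (6.77%) had a higher relative mRNA abundance in the ripe male gonad, stage 3, than in the stage before it and in the stage after it. They were chosen by the log2 ratios that the authors deposited, later over earlier stage, averaged over the duplicate spots of a clone. A clone was taken when its mean ratio was at least 0.3 on the 4 arrays of stage 3 against stage 2 and at most -0.3 on the 4 arrays of stage 4 against stage 3, and when the 4 arrays of each pair agreed in sign. On this scale 1 stands for a 2-fold difference. Values from these 8 arrays chose the clones and are given as a description, with no test. The tests rest on the other 8 arrays, stage 2 against stage 1 and stage 4 against stage 1, which the choice did not use.

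RNA was taken from the mantle of single male Mytilus galloprovincialis of the Bizerta Lagoon, for which the labels give neither an age nor a treatment. Stage 1 (early) was sampled in November, stage 2 (development) in January, stage 3 (ripe) in February and stage 4 (spawning) in March, so stage and month cannot be told apart. Each of the 16 dual-color arrays set 1 mussel of a stage against 1 mussel of another, with 4 biological replicates for each of the 4 pairs of stages and both dye orientations in each pair. The labels do not say whether a mussel was used on more than 1 array, so the p-values measure the spread between arrays. If mussels were shared, the 8 arrays of the tests would not be independent of the choice. On 1 array that the choice used (Stage3/Stage2 replicate 1) the labels disagree on the sampling month of a channel. Without it, 136 clones met the criteria, and 128 of them were among the 130.

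The gonad of a mussel has no capsule of its own but grows into the mantle, where follicles fill with germ cells as the season advances and empty when the gametes are shed. Spermatogonia become spermatocytes, then spermatids, then spermatozoa. The acrosome, which in mussel sperm carries the lysins that open the vitelline coat of the egg, and the tail with its microtubules are built late in this series. The mantle also holds connective, muscle and storage tissue, so fewer cells of a type and less RNA per cell cannot be told apart in these whole-tissue extracts. The files do not pair the clones with genes. No role can therefore be given to a clone, marker genes of sperm or of other tissue could not be looked up, and clones that carry the same transcript could not be recognised.

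In the deposited values the mean ratio of the 130 clones had a median of 0.61 for stage 3 over stage 2 (0.30 to 2.39) and of -0.65 for stage 4 over stage 3 (-3.17 to -0.31). The height of the peak, taken as the smaller of the rise and the fall, had a median of 0.54. It was below 0.5 in 51 clones and at least 1 in 18. The fall about matched the rise in most clones, since the sum of both mean ratios lay within 0.3 of 0 in 98 of the 130. The clones nearest to the threshold differed little from those beyond it. The lowest rises among the members were 0.30, 0.31 and 0.31, against 0.28, 0.28 and 0.27 in the nearest clones left out. The smallest falls among the members were -0.31, -0.32 and -0.32, against -0.29, -0.29 and -0.28 in the nearest clones left out. A further 30 clones passed both thresholds but not the condition on the sign.

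The ratios below come from the scanner files, normalized within each print-tip block, so that every array is read in the same way. In these values, all 130 clones kept a mean above 0 for stage 3 over stage 2 and below 0 for stage 4 over stage 3, but 115 of them still met all criteria of the choice. Set against stage 1, stage 3 was higher in 129 of the 130 clones through stage 2 and in all 130 through stage 4. The exception, Myt01-009E12, named here after its values had been seen, had the lowest mean stage 2 over stage 1 ratio of the members, -0.71, with -0.76, -1.65, 0.16 and -0.59 on the 4 arrays. Replicate 3 was above 0 and the other 3 were below it (limma adjusted p = 0.093). Over all clones, 26.8% were above stage 1 by both routes. Both routes hold arrays that chose the clones, so these counts only describe the peak.

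Signal was strongest in stage 3. A clone was taken as well above background in a channel when at least 1 of its spots exceeded the local background median by more than 2 background SDs. By this measure, the median share of the 130 clones above background over the 8 channels of a stage was 61.9% in stage 1, 81.9% in stage 2, 96.5% in stage 3 and 74.2% in stage 4. In the other 1790 clones these shares were 37.1%, 53.2%, 48.9% and 42.0%. Of the members, 34 (26.2%) were above background in all 8 channels of stage 1 and 94 (72.3%) in all 8 of stage 3, while 15 (11.5%) were above it in none of stage 1. Over all clones these shares were 18.5%, 31.4% and 34.6%. All 8 channels of stage 3 lie on arrays that chose the clones, so the order of the stages is a description here. On the Stage2/Stage1 arrays, 46 members were above background in stage 1 on none of the 4 arrays, so their ratios over stage 1 are not measured on both sides, and 6 of these were below it in stage 2 as well.

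**Figure D1:**
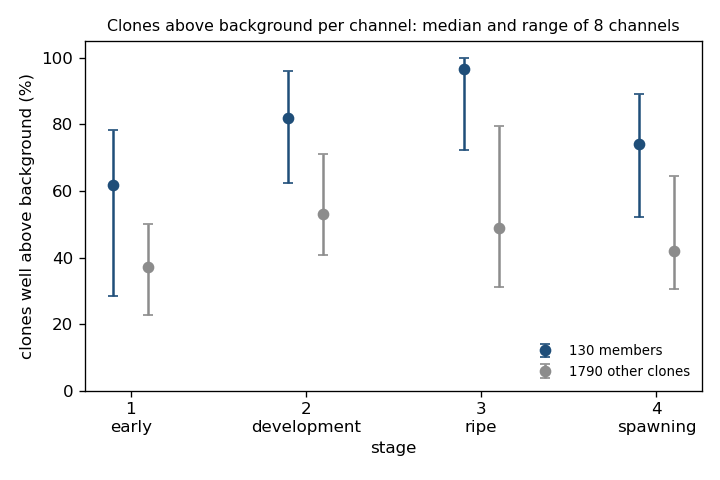
Share of clones well above background (y axis, %) in each stage (x axis), for the 130 members (blue) and the 1790 other clones (grey). Points are medians and bars the range over the 8 channels of a stage. The members reach 96.5% in stage 3 and are lowest, 61.9%, in stage 1.

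The size of the peak differed between arrays. The median ratio over the 130 clones was 0.44, 0.79, 0.86 and 0.45 on the 4 Stage3/Stage2 arrays, and -0.52, -0.72, -0.63 and -0.74 on the 4 Stage4/Stage3 arrays. The rise was larger on replicates 2 and 3 than on replicates 1 and 4, while the 4 arrays of the fall were closer to each other. The choice fixed the direction in both dye orientations, and the sizes were alike. With the later stage in Cy5 the median ratio was 0.64 for stage 3 over stage 2 and -0.71 for stage 4 over stage 3, and with the later stage in Cy3 it was 0.66 and -0.57.

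The 2 clones with the highest peak were Myt01-003D11 and Myt01-003B07. Myt01-003D11 had stage 3 over stage 2 ratios of 1.28, 3.34, 4.05 and 1.34, and stage 4 over stage 3 ratios of -1.65, -2.93, -2.96 and -4.99. Myt01-003B07 had 1.31, 3.20, 3.95 and 1.31 for stage 3 over stage 2, and -1.17, -2.74, -2.51 and -4.47 for stage 4 over stage 3. On both pairs the arrays high for one clone were high for the other, and the spread between arrays was wide, with SDs of 1.34 to 1.41 on means of 2.50 and -3.13 for Myt01-003D11 and 2.44 and -2.72 for Myt01-003B07. Both clones were above background in all 8 channels of stage 3, but in 1 of 8 channels of stage 1.

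**Figure D2:**
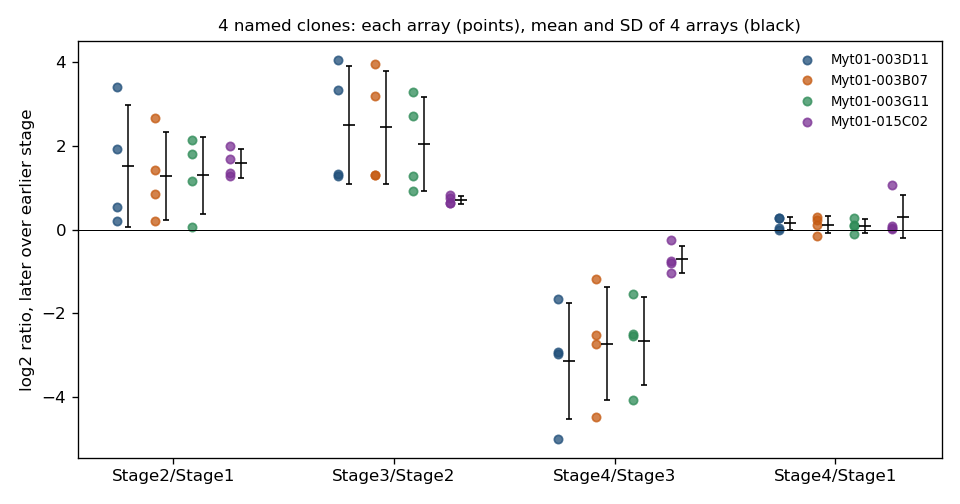
Log2 ratio of later over earlier stage (y axis) for 4 named clones in the 4 pairs of stages (x axis). Points are single arrays, and black marks give the mean and SD of 4 arrays. The 3 clones Myt01-003D11, Myt01-003B07 and Myt01-003G11 spread widely in both pairs with stage 3 and also in Stage2/Stage1, where their SDs are 0.92 to 1.46. Their Stage3/Stage2 means are 2.05 to 2.50, while Myt01-015C02 has a lower Stage3/Stage2 mean of 0.71 and lies close together there.

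The first tested question was whether these clones already differed between stage 2 and stage 1, before the ripe stage. On the Stage2/Stage1 arrays the median ratio over the 130 clones was 0.32, 0.45, 0.09 and 0.07, against medians between -0.01 and 0.00 over all clones. All 4 arrays lay above the median of all clones, replicates 1 and 2 by more than replicates 3 and 4. The mean ratio was above 0 in 106 of the 130 clones, with a median of 0.19, against 45.1% and a median of -0.02 over all clones. It was above 0 on all 4 arrays in 53 members (40.8%), against 14.6% of all clones.

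In limma, with Benjamini-Hochberg adjustment over 1920 clones, 14 of the 130 clones (10.8%) were higher in stage 2 than in stage 1 at an adjusted p below 0.05, against 4.06% of all clones. None was lower, against 3.65% of all clones. At an unadjusted p below 0.05 there were 51 members (39.2%), 50 of them higher, against 23.0% of all clones. Members were above background more often than other clones. When only clones with signal above background in both dyes on 4 or more of these 8 arrays were tested, the shares were closer, with 12 of 73 members (16.4%) higher against 10.2% of 658 clones. The count of 14 depended on the processing, the criterion and the arrays. It was 2 without background correction (46 of all 1920 clones), 43 with median centring (199) and 2 with log odds above 0 (34). Log odds above 0 was the threshold of the study's methods. The count of 14 rests on a spread shared by the Stage2/Stage1 and Stage4/Stage1 arrays. With the spread estimated from the 4 Stage2/Stage1 arrays alone, 1 member (0.769%), Myt01-015C02, was higher, against 1.09% of all clones. Leaving out 1 array gave 1 to 23 members higher. There were 2 members without Stage2/Stage1 replicate 1 (48 of all 1920 clones), 1 without replicate 2 (31) and 23 without replicate 4 (82). Without Stage4/Stage1 replicates 1, 2 and 4 there were 4, 5 and 4 (46, 48 and 46). The share of members was below that of all clones without background correction, with log odds above 0 and without Stage2/Stage1 replicate 1 or 2.

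**Figure D3:**
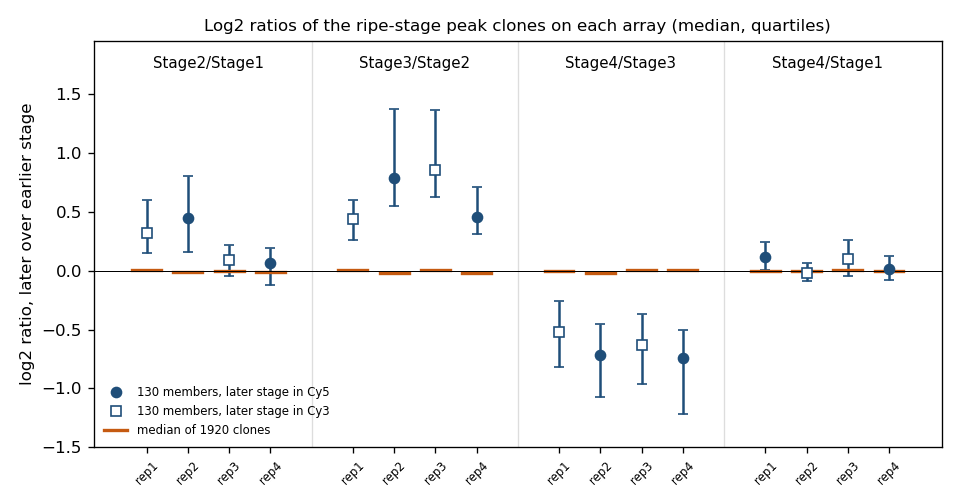
Median log2 ratio of the 130 members on each of the 16 arrays, with quartiles as bars (y axis, later over earlier stage); filled circles have the later stage in Cy5 and open squares in Cy3, and orange lines mark the median of all 1920 clones. The members lie above 0 on the 4 Stage3/Stage2 arrays and below 0 on the 4 Stage4/Stage3 arrays, which chose them, at 0.07 to 0.45 on the Stage2/Stage1 arrays and at -0.02 to 0.12 on the Stage4/Stage1 arrays.

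The 14 clones had stage 2 over stage 1 log2 changes of 0.32 to 1.58 (limma adjusted p = 0.0013 to 0.047). Each clone was above 0 on all 4 arrays. Of the 14 clones, 8 carried a number from 001 to 003, read as a plate number, in their identifier. Among all members, 64 (49.2%) carried such a number, and a difference between these shares was not tested. The largest change was that of Myt01-015C02, with ratios of 1.69, 2.01, 1.28 and 1.35 on the 4 Stage2/Stage1 arrays. All 4 ratios were above 1. Its log2 change was 1.58 ± 0.18 (SE, limma adjusted p = 0.0013), and it was called under all 19 alternative settings. Its channels were above background in every stage. The height of its peak in stage 3 was 0.35 in the deposited values and 0.70 in the scanner values.

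The second was Myt01-003G11, with Stage2/Stage1 ratios of 1.81, 2.14, 1.17 and 0.06. Replicate 4 was near 0 and the other 3 were above 1. Its log2 change was 1.30 ± 0.27 (SE, limma adjusted p = 0.021). Its SD was 0.92 on the Stage2/Stage1 arrays and 0.16 on the Stage4/Stage1 arrays, which share the spread behind the SE. On the 4 Stage2/Stage1 arrays alone the SE was 0.33 (limma adjusted p = 0.11). Its stage 1 channel was above background on none of these 4 arrays. With the dim channel taken at no less than the lowest signal above background on its array, stage 2 was at least 2.31-fold higher. For this bound and the next, stage 2 was above background on 3 of the 4 arrays, and on replicate 3 neither channel was, so the bounds hold only as far as the stage 2 signal of that array does. Myt01-003B07, described above for its peak, had 1.43, 2.66, 0.20 and 0.85, a log2 change of 1.29 ± 0.31 (SE, limma adjusted p = 0.036) and a bound of at least 1.99-fold. Its ratio was highest on replicate 2 and lowest on replicate 3. Myt01-003D11 had 1.93, 3.40, 0.22 and 0.54 and a log2 change of 1.52 ± 0.42 that missed the threshold (SE, limma adjusted p = 0.059). From the 4 Stage2/Stage1 arrays alone the limma adjusted p was 0.15 for Myt01-003B07 and 0.19 for Myt01-003D11. Of the 14 called clones, 7 were above background in stage 1 on none of the 4 Stage2/Stage1 arrays, and 4 on all of them.

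Clones with a higher peak in stage 3 tended to have a higher ratio of stage 2 over stage 1. Across the 130 clones Spearman's rho was 0.36 and Pearson's r 0.53, a description over clones that share arrays, mussels and dye labelling and are not independent. In the 18 clones with a peak of at least 1 the median stage 2 over stage 1 ratio was 0.70, 17 were above 0 and 7 were called. In the 61 clones with a peak from 0.5 to 1 it was 0.19, with 52 above 0 and 5 called, and in the 51 clones below 0.5 it was 0.15, with 37 above 0 and 2 called. Over all clones 45.1% were above 0 and 4.06% were called higher. The groups were cut by peak height, from the arrays that chose the clones, and a difference between them was not tested. The 18 highest clones were also the dimmest in stage 1, with a median of 2 of 8 channels above background, against 5 and 6 in the other groups. What part background has in this order was not tested.

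**Figure D4:**
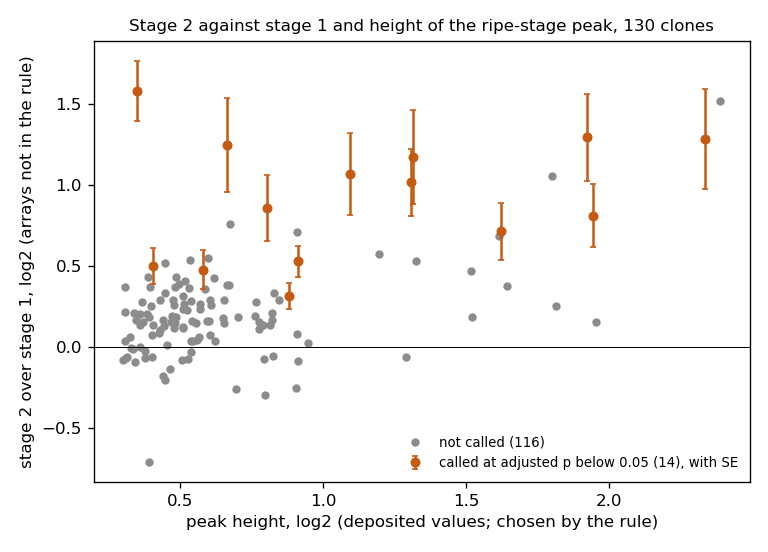
Stage 2 over stage 1 log2 ratio (y axis, arrays that did not choose the clones) against the height of the ripe-stage peak (x axis, log2, deposited values) for 130 clones. Orange points with SE bars are the 14 called clones and grey points the other 116. Of the 18 clones with a peak of at least 1, 17 lie above 0, against 45.1% of all clones.

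The other tested question was whether stage 4 differed from stage 1, after the ripe stage. On the Stage4/Stage1 arrays the median ratio over the 130 clones was 0.12, -0.02, 0.10 and 0.01, with replicates 2 and 4 closest to 0. No member was called higher or lower in limma after adjustment, and neither was any of the 1920 clones (0% in either direction). At an unadjusted p below 0.05 there were 2 members (1.54%), Myt01-001H07 and, outside the rule for named clones, Myt01-016G06, both higher, against 1.2% of all clones. The mean ratio was above 0 in 96 of the 130, with a median of 0.07, against 52.7% and 0.01 over all clones, and it was above 0 on all 4 arrays in 10 members (7.69%), against 4.95% of all clones. The size of this small shift depended on the normalization, since with median centring 66 of the 130 were above 0 and the median was 0.00083.

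The 95% intervals of the stage 4 over stage 1 change reached a median of 0.28 to either side, so smaller changes were not detectable in a typical member. These intervals are not adjusted for the number of clones tested, and their spread is shared with the Stage2/Stage1 arrays. Changes larger than 0.28 could therefore also miss the threshold after adjustment, and the lack of calls does not show that they were absent. In 128 of the 130 clones the interval lay within a 2-fold change in either direction. On these 4 arrays, however, 18 members were never above background in stage 1 and 20 never in stage 4, with 16 in neither stage. For such clones a narrow interval does not show that a large change was absent. Duplicate spots of the members correlated less on the Stage4/Stage1 arrays, 0.39 to 0.50, than on the Stage3/Stage2 and Stage4/Stage3 arrays, 0.82 to 0.99. The latter arrays chose the clones, so this contrast is a description. On the Stage2/Stage1 arrays the correlations were 0.89, 0.88, 0.48 and 0.68. Myt01-001H07 had the smallest unadjusted p among the members above 0, with ratios of 0.29, 0.02, 0.56 and 0.21 and a log2 change of 0.27 ± 0.11 (SE, limma adjusted p = 1.00 after rounding). Myt01-001H02 had the smallest among those below 0, with -0.03, -0.06, -0.29 and -0.17 and a log2 change of -0.14 ± 0.08 (SE, limma adjusted p = 1.00 after rounding). The 95% interval excluded 0 for Myt01-001H07 (0.03 to 0.51) and not for Myt01-001H02, and neither clone passed the threshold after adjustment.

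Stage 4 was set against stage 2 through stage 1, with no array that holds stage 3. The difference of both ratios had a median of -0.13 over the members and was below 0 in 90 of the 130 (69.2%), against a median of 0.02 and 45.5% over all clones. In limma, 1 member (0.769%) was lower in stage 4, against 1.15% of all clones, and none was higher, against 1.15%. At an unadjusted p below 0.05 there were 25 members (19.2%), 24 of them lower, against 12.6% of all clones. The called clone was Myt01-015C02, with a log2 change of -1.28 ± 0.26 (SE, limma adjusted p = 0.040). In the loop over all 16 arrays the change was -0.63 (limma adjusted p = 0.088), and through stage 3, on arrays that chose the clones, it was 0.013, so its size depended on the route. Its Stage4/Stage1 ratios were 0.09, 0.03, 1.08 and 0.02, so replicate 3 stood apart from the other 3 arrays, which were close to 0. Without any 1 of the 4 Stage2/Stage1 or Stage4/Stage1 arrays, 0 to 4 members were called, and none without Stage2/Stage1 replicates 1 or 2 or Stage4/Stage1 replicates 1, 2 or 4.

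The comparison with stage 2 uses the Stage2/Stage1 arrays again, so it repeats part of the first test. Through stage 3 instead, where the arrays chose the clones, the median of stage 4 over stage 2 was 0.00.

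The clone identifiers carry a number from 001 to 020, read here as the plate of the clone, with 96 clones each. The members were unevenly spread over these plates. Plate 003 held 27, plate 001 held 23 and plate 002 held 14, which together are 64 of the 130 (49.2%) on 15% of the clones. Plates 012 and 020 held none. These plates were singled out after the counts had been seen, so no test is given. On plates 001 to 003 the median stage 2 over stage 1 ratio was 0.23 over the 64 members, against -0.01 over the other clones there, and on the other 17 plates it was 0.17 over 66 members, against -0.03. In both groups of plates the median of the members was above that of the other clones. What part the plates have in this shift was not tested.

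The opposite profile, lowest in stage 3 by the same thresholds with turned signs, was held by 69 clones, of which 4 came from plates 001 to 003. For stage 2 over stage 1 the 130 clones had a median of 0.19 and 106 above 0, against a median of -0.04 and 31 above 0 in the 69 clones. For stage 4 over stage 1 the 130 clones had a median of 0.07 and 96 above 0, against -0.06 and 23 above 0 in the 69. No test of this difference was made, since both groups were chosen on the same 8 arrays.

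**Figure D5:**
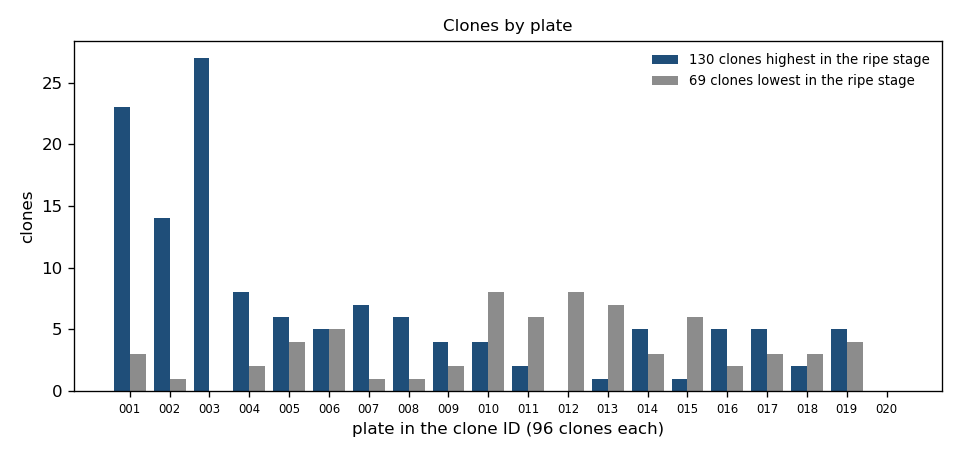
Number of clones (y axis) by plate number in the clone identifier (x axis, 96 clones each), for the 130 clones highest in the ripe stage (blue) and the 69 lowest in it (grey). Plates 001, 002 and 003 hold 64 of the 130 and 4 of the 69.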

How the data were processed

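Members, comparisons and alternatives were chosen with earlier results of these data known. The scanner files that the authors deposited hold the intensity of spots and local background in Cy5 and Cy3 from GenePix. The authors also deposited a table with a log2 ratio for each spot, made per the methods by background subtraction, loess and linear models. Read as later over earlier stage, it correlated at 0.982 to 0.999 with scanner ratios normalized by loess over the whole array, which settled its scale and direction. The print-tip ratios of the tests were not used for this comparison. It served for choosing members, for threshold values and peak heights, and as an alternative for the tests.

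Scanner values were corrected by normexp (offset 50) and print-tip loess (limma 3.58.1 in R 4.3.3), and duplicate spots were averaged. One mean per pair of stages was fitted to the 8 Stage2/Stage1 and Stage4/Stage1 arrays, with empirical Bayes moderation (6 residual and 3.43 prior degrees of freedom). Both pairs shared the estimate of the spread, also where their spreads differed. The fit was tested on simulated data. The paper's loop fit over 16 arrays was an alternative. The number of arrays limits the precision. Clones were named by rule: the 2 highest peaks and, per comparison, at most 2 called members with the largest rise and 2 with the largest fall, or else the smallest p in each direction. Gene lists could not be applied. Figures were drawn with matplotlib 3.10.9.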

Additional observations from a re-analysis of the deposited data

Results flagged for a closer look

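Among 32 groups of 4 arrays (the ratios of the 6 named clones in each pair of stages, and the medians and duplicate correlations of the members), 1 array stood apart by Dixon's test. Myt01-015C02 had a stage 4 over stage 1 ratio of 1.08 on replicate 3, against 0.02 to 0.09 on the other 3 arrays. About 1 in 20 such groups is expected to show this by chance. The cause was not tested.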

How the results depend on the processing

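The 130 clones became 93 to 142 when the same criteria were applied to the scanner values under 4 processings, and 124 to 144 without 1 of the 8 arrays. With print-tip loess, the processing of the tests, 136 clones met them, 115 of these among the 130. The clones shared with the 130 were 85 without background correction, 93 with median centring and 130 with loess over the whole array. For stage 2 against stage 1, 14 members were called, and 2 without background correction, 43 with median centring, 9 in the loop over 16 arrays, 1 with each pair's own 4 arrays and 2 with log odds above 0. Leaving out 1 array gave 1 to 23. Of all clones 148 were called, and 93 without background correction, 290 with median centring and 83 with scaling between arrays. There were 168 in the loop, 34 with own arrays and 62 with log odds above 0, or 50 to 155 without 1 array. Higher calls were 199 of 290 with median centring, against 78 of 148. Under every setting but 1 no member was lower; without Stage2/Stage1 replicate 3, Myt01-009E12 was. The median over members was 0.46 with median centring for stage 2 over stage 1, 0.00083 for stage 4 over stage 1 and -0.48 for stage 4 over stage 2 through stage 1, and it kept its sign under all alternatives. It ranged from 0.15 to 0.26, from 0.04 to 0.08 and from -0.22 to -0.08 without 1 array. No clone was called for stage 4 against stage 1 under any of 19 alternatives. For stage 4 against stage 2, 1 member was called, and 0 without background correction, 3 with median centring, 0 with scaling, 2 in the loop, 0 with log odds above 0, and 0 to 4 without 1 array. Of all clones 44 were called, and 15 without background correction, 49 with median centring and 25 with scaling. There were 167 in the loop, 27 with log odds above 0 and 6 to 63 without 1 array.

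Deviations from the pair means were correlated between Stage2/Stage1 and Stage4/Stage1 arrays of equal replicate number. The correlations were -0.06, -0.07, -0.04 and 0.32 for replicates 1 to 4, which does not decide whether arrays were paired. With replicate number as a block, 11 members were called for stage 2 against stage 1, 0 for stage 4 against stage 1 and 1 for stage 4 against stage 2. Of all 1920 clones, 115, 0 and 57 were called there. Of the named clones, Myt01-015C02 kept its call for stage 2 against stage 1 under all 19 alternatives (adjusted p 0.00024 to 0.0099) and lost that for stage 4 against stage 2 under 11 of 18. Myt01-003B07 lost its call under 10 of 18 and Myt01-003G11 under 6 of 18. Myt01-003D11 gained one under 4 of 18. Causes were not tested. Weak signal in stage 1 limits the ratios over that stage for members below background there.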
